A study of Homo sapiens with 60 samples.

Results

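The genes described here are 8 members of the EGF receptor system, taken by name from a table of 38342 gene names measured in 60 RNA libraries. They are the ligand genes HBEGF, AREG, EREG and TGFA, the receptor genes EGFR, ERBB2 and ERBB3, and the receptor inhibitor gene ERRFI1. All 8 were found in the table, and all 8 were among the 15866 genes that reached 1 FPKM, a read count scaled to transcript length and to library size, in at least 3 libraries and were tested. The cells were MDA-MB-231, an established human triple-negative breast cancer line that grows without oestrogen receptor, progesterone receptor or amplified ERBB2. They had been treated with 100, 300 or 1000 nM of the compound BAY2506856, with 3 libraries for each dose at each of 1, 3, 6 and 24 h, or with its solvent DMSO, with 6 libraries at each time. No target of the compound is stated in the labels, and all groups share the same line with no other agent. Times were taken from each sample's own label, whereas the design text of the series names a harvest at 24 h only. No label says that replicates came from separate cultures, so p-values here measure the spread between these libraries, which may be technical.

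The EGF receptor and its relatives are cell surface tyrosine kinases that pair up when a ligand binds and then feed the RAS-ERK and PI3K-AKT cascades. Their ligands are made as membrane-anchored precursors that metalloproteases, chiefly ADAM17 and ADAM10, cut free. Amphiregulin (AREG) and TGF-alpha (TGFA) bind EGFR, while heparin-binding EGF (HBEGF) and epiregulin (EREG) also bind the ERBB4 receptor. ERBB2 has no known ligand of its own and serves as a partner, ERBB3 has a very weak kinase and works through that partner, and ERRFI1 (also called MIG6) binds and blocks the active EGFR kinase. MDA-MB-231 cells are known for a basal-like phenotype with ample EGFR and for activating mutations in the RAS-ERK cascade.

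The sequence just before the annotated start is shown for the members with the largest changes at 1000 nM and 24 h among the 7 of 8 that have a window in the RefSeq promoter table (build GRCh38.p14); no window was used for ERBB3. Each line gives the 250 bases before the start, 5′ to 3′ on the gene's strand, and capitals mark motif matches. The windows lie at chr5:140346604-140346853 on the minus strand for HBEGF, at chr4:74444886-74445135 on the plus strand for AREG, at chr4:74364895-74365144 on the plus strand for EREG and at chr1:8026310-8026559 on the minus strand for ERRFI1.
HBEGF: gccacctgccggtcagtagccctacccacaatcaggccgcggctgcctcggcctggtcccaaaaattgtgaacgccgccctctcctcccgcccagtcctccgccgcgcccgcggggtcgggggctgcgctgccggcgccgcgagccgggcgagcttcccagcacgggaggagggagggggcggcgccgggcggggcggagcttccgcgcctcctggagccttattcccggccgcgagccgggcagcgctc
AREG: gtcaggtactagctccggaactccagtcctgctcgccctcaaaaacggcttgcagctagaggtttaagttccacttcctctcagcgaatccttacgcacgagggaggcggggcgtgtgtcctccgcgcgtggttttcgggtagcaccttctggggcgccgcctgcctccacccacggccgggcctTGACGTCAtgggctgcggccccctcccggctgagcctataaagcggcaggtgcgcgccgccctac
EREG: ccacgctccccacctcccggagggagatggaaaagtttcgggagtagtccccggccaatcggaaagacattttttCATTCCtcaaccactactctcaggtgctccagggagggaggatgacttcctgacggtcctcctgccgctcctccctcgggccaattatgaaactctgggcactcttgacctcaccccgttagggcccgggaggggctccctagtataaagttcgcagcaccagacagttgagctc
ERRFI1: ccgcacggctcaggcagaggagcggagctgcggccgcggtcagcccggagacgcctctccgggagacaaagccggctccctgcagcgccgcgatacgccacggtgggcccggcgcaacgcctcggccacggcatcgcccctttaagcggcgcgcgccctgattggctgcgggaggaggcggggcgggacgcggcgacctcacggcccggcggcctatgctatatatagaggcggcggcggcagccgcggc

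Motifs were searched on both strands, and the share of all 35116 windows of the same length that hold each is given with it. The cyclic AMP response element TGACGTCA, present in 1.65% of all windows, matched once in AREG, 65 to 58 bases before the start. The TEAD motif CATTCC, the DNA word bound by the partners of YAP1 and TAZ and present in 11.9% of windows, matched once in EREG, 175 to 170 bases before the start, and once in a second window of EGFR. The AP-1 motif was searched as TGANTCA, where N is any base, a pattern present in 6.57% of windows. It matched in windows of EGFR, as TGACTCA and TGAGTCA, and of ERBB2, as TGATTCA. The FOXO motif GTAAACA, in 2.98% of windows, and the serum response CArG box, in 1.16%, matched in none of the 7 members' windows. The motifs overlap one another in none of the printed windows, and a match describes letters only.

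Sequencing depth, recovered as whole reads from the steps of the FPKM values, ranged from 0.475 to 86.5 M (median 11.2 M). Fewer than 2 M reads were found in 3 libraries, namely replicate 2 of 1000 nM at 3 h, of 300 nM at 24 h and of DMSO at 24 h. By their values the libraries form 3 types of unknown origin, on which the labels are silent. They were told apart by an index, the mean log2 level of 6 ribosomal and other pseudogenes minus that of 6 others, and by a mitochondrial message. Most libraries, 41, share the first type. A second type is seen in 13 libraries spread over the 4 times, 4 of them DMSO, whose index is 2.62 to 4.25, while the first type has -1.99 to -1.25. The third type is seen in 6 DMSO libraries, 3 at 1 h and 3 at 3 h, whose level of the mitochondrial message MT-ND6 is 56.9 to 105 FPKM, while the first type has 0.848 to 5.71 FPKM. At 24 h the second type held 1 of 6 libraries in DMSO, 0 of 3 at 100 nM, 1 of 3 at 300 nM and 2 of 3 at 1000 nM. Within 11 groups that held both types, AREG was 1.34 times as high in the second type as in the first (median ratio, range 1.24 to 1.53), EREG 1.26 times and ERBB2 0.638 times, whereas the median ratios of the other 5 members lay between 0.901 and 1.05. Changes of the 8 genes at 1000 nM and 24 h are therefore also given within the first type. At that dose and time the first type held 1 library, so each first-type change there rests on that library. For other named genes of the pathway the first-type value is given where it moved the change by over 1.5 times, except PTPN1, PTPN11, MAP2K1 and MYC, for which no such value was computed.

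Markers were checked against the label. ESR1 and PGR, which encode the oestrogen and progesterone receptors, reached at most 0.00263 and 0.0128 FPKM in any library, and FOXA1, another luminal gene, at most 0.0432 FPKM. Other luminal epithelial markers were expressed in every library, namely KRT8 (71.5 to 144 FPKM), KRT18 (89.1 to 143), KRT19 (80.6 to 320), EPCAM (4.43 to 16.3) and GATA3 (1.34 to 5.58), while CDH1 reached at most 1.09 FPKM. Of markers of mesenchymal-like breast cancer cells, VIM and CD44 measured 397 to 642 and 104 to 182 FPKM, FN1 49.0 to 209, SNAI2 7.38 to 19.0 and ZEB1 4.51 to 14.9, whereas SPARC reached at most 0.450 FPKM. The 9 luminal genes summed to 396 to 569 FPKM at 1000 nM and 24 h against 299 to 408 FPKM in DMSO, and the 6 mesenchymal genes to 884 to 896 against 590 to 665 FPKM. Of markers of other cell types, the 4 measured leukocyte genes summed to 1.99 to 2.69 FPKM in the same treated libraries against 0.264 to 1.17 in DMSO. LYZ made up most of these treated sums and reached 4.31 FPKM in the series. PTPRC and CD68 reached at most 0.101 and 0.411 FPKM in any library, and the leukocyte marker CD3E was at 0 in all 60 libraries. The 4 fibroblast genes summed to 0.636 to 1.68 against 1.39 to 2.22 FPKM in DMSO, and the 3 measured endothelial genes to 0.316 to 0.575 against 0.614 to 1.12 FPKM. Their part in the results was not tested.

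In DMSO libraries the members spanned a wide range of levels per length. ERRFI1 (mean 61.0 FPKM over the 24 DMSO libraries) and AREG (58.9 FPKM) were the highest, followed by HBEGF (29.9 FPKM), EGFR (26.6 FPKM) and TGFA (17.0 FPKM). ERBB2 (8.34 FPKM), EREG (4.46 FPKM) and ERBB3 (0.576 FPKM) were low. The fourth receptor gene, ERBB4, reached at most 0.0178 FPKM in any library and was not tested. All members but ERBB3, 7 in number, were at or above 1 FPKM in all 60 libraries, whereas ERBB3 reached it in 9, all of them treated for 24 h, and passed the filter through these. Counts of members below are therefore over the 7, and ERBB3 is given apart.

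**Figure D1:**
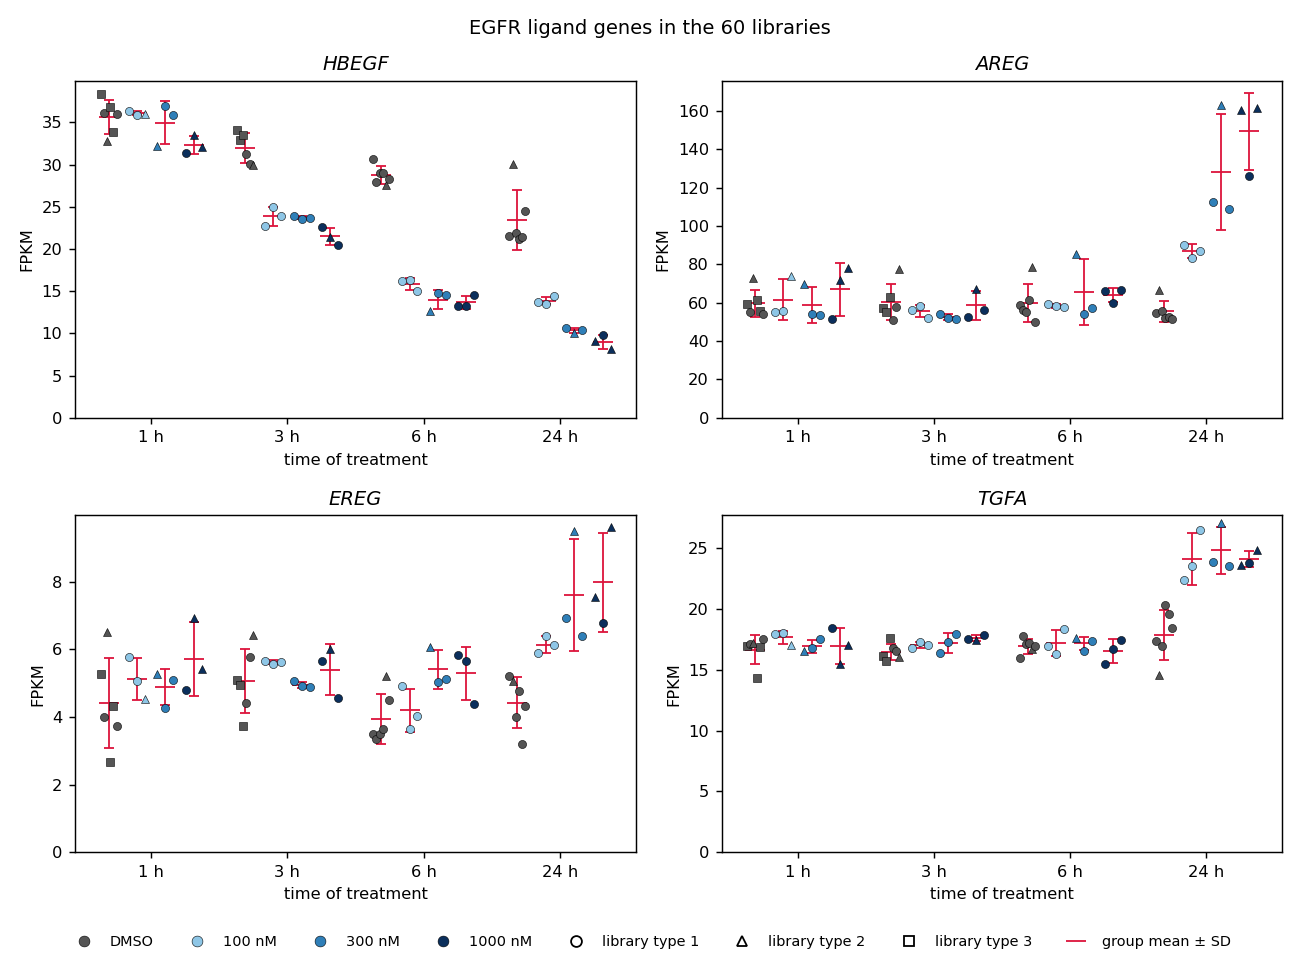
FPKM of HBEGF, AREG, EREG and TGFA in every library, by time of treatment, with DMSO and the 3 doses side by side; point shape gives the library type, and red bars give the group mean with SD. HBEGF lies below DMSO at every dose from 3 h on, and the other 3 ligand genes lie above DMSO at 24 h.

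Among the 4 ligand genes HBEGF was the 1 that fell, and it fell early. After 1 h it measured 31.4, 32.1 and 33.5 FPKM at 1000 nM, against 32.8 to 38.4 FPKM in DMSO (median 36.1), and the groups overlapped. The change of -0.14 ± 0.07 on the log2 scale (SE) did not pass the threshold (limma, Benjamini-Hochberg adjusted p = 0.477). No gene of the 15866 was called at 1 h at any dose (0% of genes), although 809 genes had an unadjusted p under 0.05 at 100 nM, 192 at 300 nM and 1637 at 1000 nM. Among the 7 members these unadjusted counts were 0, 1 and 2, and the count test on recovered reads likewise left 0 of the 7 past the threshold at each dose.

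At 3 h HBEGF measured 30.0 to 34.1 FPKM in DMSO (median 32.1), 22.8, 23.9 and 24.9 FPKM at 100 nM, 23.6, 23.7 and 23.9 FPKM at 300 nM, and 20.5, 21.4 and 22.6 FPKM at 1000 nM. All 9 treated libraries lay below all 6 DMSO libraries, of which the 3 of the third type were the highest, at 33.0 to 34.1 FPKM. First-type means were 30.7 FPKM in DMSO (n = 2) and 21.5 FPKM at 1000 nM (n = 2). At 100 and 300 nM they were 23.9 and 23.7 FPKM (n = 3 each). The log2 change was -0.41 ± 0.07 at 100 nM, -0.42 ± 0.07 at 300 nM and -0.56 ± 0.07 at 1000 nM, with adjusted p of 0.00177, 0.000508 and 9.55e-07 (limma). HBEGF was the 1 member of 7 called at each dose, where 0.0693%, 0.126% and 0.132% of all genes were called at 100, 300 and 1000 nM. Of all genes, 0%, 0.0252% and 0.0252% were called higher at those doses and 0.0693%, 0.101% and 0.107% lower. A fit to only the groups compared ended these calls (adjusted p = 0.367, 0.146 and 0.105). In bulk RNA, fewer cells that express a gene and less of its RNA per cell cannot be told apart, here and below.

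At 6 h the difference had widened. HBEGF measured 27.6 to 30.6 FPKM in DMSO (median 28.6), 15.0, 16.2 and 16.3 FPKM at 100 nM, 12.7, 14.5 and 14.8 FPKM at 300 nM, and 13.2, 13.3 and 14.6 FPKM at 1000 nM. Again no treated library reached the lowest DMSO library. The 1000 nM mean of 13.7 ± 0.76 FPKM (SD, n = 3) was 0.476 times the DMSO mean of 28.7 ± 1.07 FPKM (SD, n = 6), with a log2 change of -1.04 ± 0.07 (limma adjusted p = 7.79e-16). The changes at 100 and 300 nM were -0.84 ± 0.07 and -1.01 ± 0.07 (adjusted p = 3.57e-12 and 2.39e-15). HBEGF was again the 1 member called of 7 at each dose, beside 0.863%, 1.67% and 2.01% of all genes at 100, 300 and 1000 nM. Lower calls made up 0.655%, 1.11% and 1.3% of all genes, and higher calls 0.208%, 0.561% and 0.706%. The increase of the 1000 nM effect between 3 and 6 h was itself past the threshold, at -0.48 ± 0.10 (adjusted p = 0.0102), where 0.227% of genes were called (0.0378% higher, 0.189% lower). Between 1 and 3 h it moved by -0.42 ± 0.10 (adjusted p = 0.130), and 0 of the 7 members were called there, beside 0.0504% of all genes, with 1 of the 7 and 790 of all genes at an unadjusted p under 0.05. That HBEGF step was called under 5 of 11 other settings, with type terms (-0.43, adjusted p = 0.0375), without the libraries under 2 M reads (-0.42, 0.0249), with both (-0.48, 0.000423), with the count test on recovered reads (-0.45, 0.00725) and with array weights (-0.43, 4.6e-05). Within the first type it was -0.30 and not called (adjusted p = 0.321). For the step from 3 to 6 h, leaving out 1000 nM 3 h replicate 1, 1000 nM 6 h replicate 1 or 1000 nM 6 h replicate 2 ended that call (adjusted p = 0.0579, 0.0642 and 0.0591).

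At 24 h HBEGF reached its lowest levels of the series. It measured 21.1 to 30.1 FPKM in DMSO (median 21.7), 13.5, 13.7 and 14.4 FPKM at 100 nM, 10.1, 10.4 and 10.7 FPKM at 300 nM, and 8.12, 9.09 and 9.77 FPKM at 1000 nM. The highest DMSO value came from DMSO 24 h replicate 2, the shallowest library of the series, with 44 HBEGF reads. Log2 changes were -0.72 ± 0.07, -1.12 ± 0.07 and -1.33 ± 0.07 at 100, 300 and 1000 nM (limma adjusted p = 3.77e-11, 4.49e-18 and 9.23e-21). Within the first library type, which held 1 library at 1000 nM, they were -0.65, -1.03 and -1.14. The dose difference, 1000 against 100 nM, was -0.60 ± 0.08 (adjusted p = 7.90e-07), but not past the threshold in a fit to those groups alone (adjusted p = 0.226). From 6 to 24 h the 1000 nM effect grew by a further -0.28 ± 0.10 (adjusted p = 0.0471), a call kept under 4 of 11 other settings and in 6 of 18 fits that left out a library, and at -0.08 within the first type (adjusted p = 0.549).

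HBEGF also drifted in the solvent alone. The DMSO means at 1, 3, 6 and 24 h were 35.6 ± 2.02, 32.0 ± 1.76, 28.7 ± 1.07 and 23.4 ± 3.50 FPKM (SD, n = 6 each). The step at 24 h against 6 h was -0.30 ± 0.06 (limma adjusted p = 0.000269), and 3 of the 7 members were called in it, beside 9.34% of all genes (4.96% higher, 4.38% lower): HBEGF and EGFR lower and ERRFI1 higher (0.14 ± 0.04, adjusted p = 0.0170). ERRFI1 lost that call in a fit to those groups alone (adjusted p = 0.184), under median-of-ratios scaling (0.0503) and without DMSO 6 h replicate 1 (0.0750) or DMSO 24 h replicate 2 (0.0537). Between successive earlier DMSO times 0 of 7 were called, beside 0.536% of all genes for 3 h against 1 h (0.353% higher, 0.183% lower) and 0.504% for 6 h against 3 h (0.309% higher, 0.195% lower), with 3 and 2 members at an unadjusted p under 0.05 in limma. The HBEGF step at 24 h against 6 h did not pass in a limma fit to those 2 DMSO groups alone (adjusted p = 0.101). The later treated level is therefore read only against DMSO of the same time. Over the 16 groups, the order of mean HBEGF levels had 5 breaks where neighbouring groups shared no value, and the 10 other neighbouring pairs overlapped. How many such breaks the other tested genes have was not computed.

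AREG, by contrast, overlapped with DMSO up to 6 h and then rose. At 24 h it measured 51.5 to 66.4 FPKM in DMSO (median 53.6), 83.2, 87.0 and 90.3 FPKM at 100 nM, 109, 112 and 163 FPKM at 300 nM, and 126, 160 and 161 FPKM at 1000 nM. Every treated library lay above every DMSO library. The 1000 nM mean of 149 ± 20.2 FPKM (SD, n = 3) was 2.69 times the DMSO mean of 55.5 ± 5.61 FPKM (SD, n = 6). The log2 changes were 0.65 ± 0.14, 1.18 ± 0.14 and 1.42 ± 0.14 at 100, 300 and 1000 nM (limma adjusted p = 0.000451, 1.88e-09 and 9.27e-12).

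The 3 highest treated AREG values all came from libraries of the second type, in which AREG read higher in all 11 groups that held both types. With terms for the library types the changes were 0.72, 1.10 and 1.19 (adjusted p = 1.13e-14, 7.51e-22 and 9.55e-23), and within the first type 0.70, 1.05 and 1.23. Within the second type, which holds 2 libraries at 1000 nM and 1 in DMSO at 24 h, the ratio was 2.42, without a test. The difference between 1000 and 100 nM was 0.77 ± 0.16 (adjusted p = 0.00140), 0.47 with type terms (adjusted p = 6.88e-07) and not past the threshold in a fit to those groups alone (adjusted p = 0.162). Between 6 and 24 h the 1000 nM effect moved by 1.30 ± 0.20 (adjusted p = 1.83e-06).

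Among the earlier values the highest, 85.1 FPKM at 300 nM and 6 h, was again from a second-type library. At 6 h AREG measured 60.0, 66.2 and 66.5 FPKM at 1000 nM, against 49.9 to 78.5 FPKM in DMSO (median 57.5), a log2 change of 0.11 ± 0.14 (adjusted p = 1). With type terms it was 0.18 and past the threshold (adjusted p = 0.0367), and within the first type 0.19 (adjusted p = 0.0209). AREG shares its reads with AREGB, a near-identical copy annotated in hg19, which held 97.0 to 100% of the AREG reads in every library (median 99.0%). Its values cannot be separated from those of AREG, so the level of AREG is uncertain and AREGB is no second observation.

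EREG, whose gene lies beside AREG on chromosome 4, also rose at 24 h, with smaller fitted changes. It measured 3.19 to 5.20 FPKM in DMSO (median 4.56), 5.88, 6.14 and 6.39 FPKM at 100 nM, 6.39, 6.93 and 9.50 FPKM at 300 nM, and 6.77, 7.55 and 9.61 FPKM at 1000 nM. The treated and DMSO libraries did not overlap. Log2 changes were 0.44 ± 0.16, 0.71 ± 0.16 and 0.78 ± 0.16 (limma adjusted p = 0.0474, 0.000499 and 0.000125), with the 2 highest values again from the second library type. The call at 100 nM is weak, since it was lost under 4 of 11 other settings (adjusted p up to 0.0875) and in 6 of 9 fits that left out a library (0.0594 to 0.154), namely any of the 3 treated libraries or DMSO 24 h replicate 3, 5 or 6. Within the first type the changes were 0.48 and 0.59 at 100 and 300 nM, both called, and 0.61 at 1000 nM, from 1 library. The difference between 1000 and 100 nM did not pass (0.34 ± 0.19, 95% interval -0.04 to 0.72, adjusted p = 0.283), nor did the change of the 1000 nM effect from 6 to 24 h (0.40 ± 0.23, adjusted p = 0.277). At 6 h the change at 1000 nM was 0.39 ± 0.16 and not called (adjusted p = 0.414), but 0.46 and called within the first type (adjusted p = 0.00908).

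TGFA rose at 24 h at each dose. It measured 14.6 to 20.3 FPKM in DMSO (median 17.9), 22.4, 23.5 and 26.5 FPKM at 100 nM, 23.6, 23.8 and 27.0 FPKM at 300 nM, and 23.6, 23.8 and 24.8 FPKM at 1000 nM. All 9 treated libraries lay above the 6 DMSO libraries. The log2 changes were 0.43 ± 0.07, 0.47 ± 0.07 and 0.43 ± 0.07 (adjusted p = 3.75e-06, 2.22e-07 and 1.16e-06), and 0.37, 0.35 and 0.36 within the first type. The difference between 1000 and 100 nM was 0.00, with a 95% interval of -0.16 to 0.16 (adjusted p = 1). The 1000 nM effect at 24 h exceeded that at 6 h by 0.46 ± 0.10 (adjusted p = 0.000349), and at 1, 3 and 6 h no dose changed TGFA past the threshold.

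Together these shifts changed the make-up of the ligand messages. At 24 h HBEGF made up 23.1 ± 1.85% of the summed FPKM of the 4 ligand genes in DMSO (SD, n = 6), 10.6 ± 0.18% at 100 nM, 6.25 ± 1.25% at 300 nM and 4.80 ± 0.98% at 1000 nM (SD, n = 3 each). AREG made up 54.8 ± 2.00% in DMSO, 66.3 ± 1.74% at 100 nM, 74.6 ± 2.75% at 300 nM and 78.3 ± 2.21% at 1000 nM. The sum itself was 101 ± 7.37 FPKM in DMSO, 131 ± 3.84 at 100 nM, 171 ± 33.6 at 300 nM and 190 ± 20.9 at 1000 nM. These shares and sums rest on the uncertain level of AREG, whose reads AREGB shares, and on libraries of the second type, in which AREG read higher. Within the first type, a split added after the data had been seen, AREG made up 54.3% in DMSO (n = 5), 66.3% at 100 nM (n = 3), 73.0% at 300 nM (n = 2) and 75.8% in the 1 library at 1000 nM. HBEGF made up 22.5%, 10.6%, 6.97% and 5.88% of the same libraries, and the sums were 98.2, 131, 151 and 166 FPKM. The second-type libraries had sums of 116 FPKM in DMSO, 209.5 at 300 nM and 201 and 204 at 1000 nM. At 6 h, when HBEGF was the 1 ligand gene called, the sum was 99.8 ± 3.77 FPKM at 1000 nM and 110 ± 9.90 FPKM in DMSO. The 3 libraries at 1000 nM were all of the first type there, and the first-type DMSO libraries had a sum of 106 ± 4.57 FPKM (SD, n = 5).

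**Figure D2:**
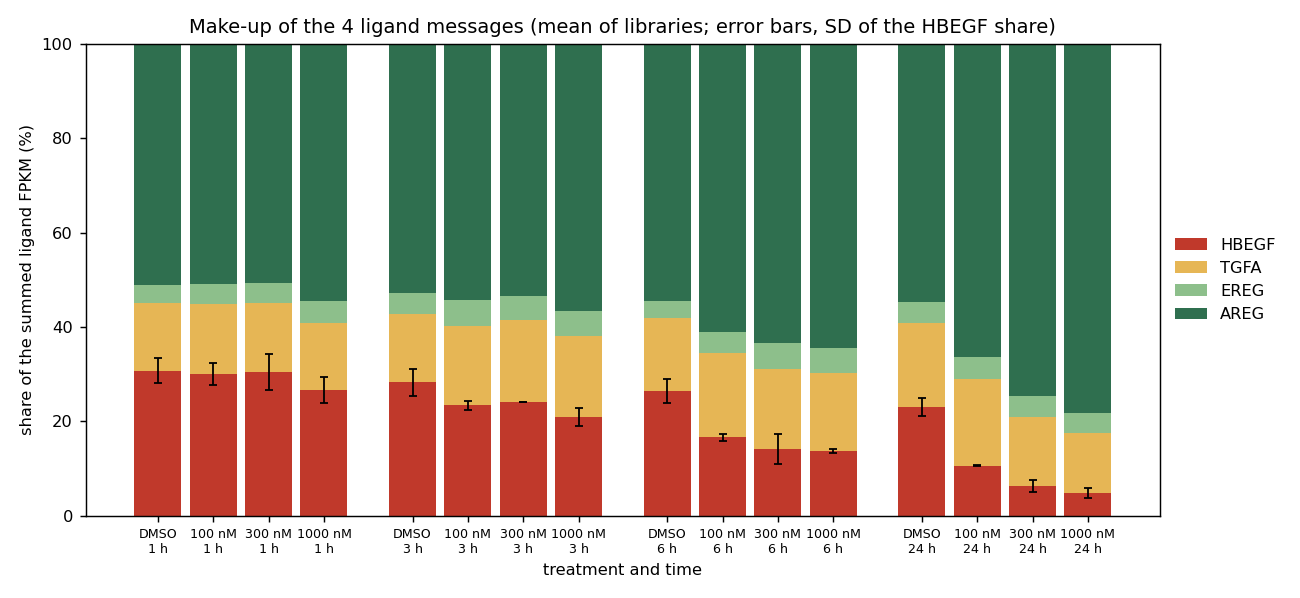
Share of each ligand gene in the summed FPKM of HBEGF, TGFA, EREG and AREG, as group means in DMSO and at the 3 doses for each time, with error bars for the SD of the HBEGF share. The HBEGF share at 24 h is 23.1% in DMSO and 4.80% at 1000 nM.

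EGFR, the receptor gene with the highest level, passed the threshold against DMSO at no time or dose. At 1 h it measured 21.5 to 31.2 FPKM in DMSO (median 31.0), 30.1, 31.6 and 32.9 FPKM at 100 nM, 32.5, 32.7 and 32.9 FPKM at 300 nM, and 31.9, 32.0 and 32.1 FPKM at 1000 nM. The libraries at 300 and 1000 nM lay above all 6 of DMSO, and those at 100 nM overlapped with them. What share of all genes lies apart from DMSO in this way was not computed, here or for the other members. The changes at 300 and 1000 nM, 0.17 ± 0.07 and 0.14 ± 0.07, were not called (limma adjusted p = 1 and 0.477), and were 0.09 and 0.06 without DMSO 1 h replicate 4, the lowest library. At 6 h it measured 26.9 to 28.9 FPKM in DMSO (median 27.5), 25.6, 26.1 and 26.3 FPKM at 100 nM, 24.4, 25.4 and 25.5 FPKM at 300 nM, and 24.4, 25.1 and 25.1 FPKM at 1000 nM. At that time all 9 treated libraries lay below the 6 DMSO libraries, but the change at 1000 nM, -0.15 ± 0.07, was not called among all genes (limma adjusted p = 0.520), although it was within the first type (-0.16, adjusted p = 0.0213). At 24 h EGFR measured 20.7 to 24.6 FPKM in DMSO (median 23.5), 21.5, 22.6 and 23.5 FPKM at 100 nM, 20.8, 22.0 and 22.6 FPKM at 300 nM, and 20.4, 20.7 and 21.0 FPKM at 1000 nM, and every dose overlapped with DMSO. The change at 1000 nM was -0.16 ± 0.07 (95% interval -0.29 to -0.02) and missed the threshold (limma adjusted p = 0.0641). It passed under median-of-ratios scaling (-0.18, adjusted p = 0.0376), with array weights (-0.19, 0.0122), with the count test on recovered reads (-0.23, 0.0239) and without DMSO 24 h replicate 1 (-0.19, 0.0270). The first type alone gave -0.15 and no call (adjusted p = 0.0744). At 300 nM it was -0.09 ± 0.07 (adjusted p = 0.374), and -0.12 with a call within the first type (adjusted p = 0.0482). With time in DMSO, EGFR had means of 29.2, 26.4, 27.6 and 23.2 FPKM at 1, 3, 6 and 24 h, and the step at 24 h against 6 h was -0.25 ± 0.06 (adjusted p = 0.00171).

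ERBB2, the partner receptor, could not be placed without regard to library type. At 24 h it measured 5.40 to 9.45 FPKM in DMSO (median 8.44), 9.08, 9.55 and 10.6 FPKM at 100 nM, 6.53, 10.3 and 10.4 FPKM at 300 nM, and 6.55, 7.75 and 10.4 FPKM at 1000 nM. The values overlapped at every dose, and the lowest of each set came from second-type libraries at 300 nM, 1000 nM and in DMSO. The change at 1000 nM was 0.05 ± 0.19 (95% interval -0.34 to 0.43, adjusted p = 0.879). With type terms it was 0.32 (adjusted p = 0.00369), and 0.28 with type terms and without the libraries under 2 M reads (adjusted p = 0.0169), while the first type alone gave 0.29 (adjusted p = 0.0638) from a single 1000 nM library. At 300 nM the values were 0.18 ± 0.19 (adjusted p = 0.541) in all libraries and 0.29 (adjusted p = 0.0133) in the first type. GENCODE 29 annotates MIEN1 and PGAP3 across it on the opposite strand, with medians of 14.2 and 2.83 FPKM, and no source used here says whether counting used strand. It also annotates the protein-coding gene AC034102.2 across ERBB3 on the same strand, and AL034417.4 across ERRFI1 on the opposite strand. Neither of these has a value among the measured genes, so their part in the counts was not tested.

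ERBB3, which needs a partner kinase to signal, was low throughout and rose at 24 h. It measured 0.605 to 0.716 FPKM in DMSO (median 0.667), 1.07, 1.32 and 1.32 FPKM at 100 nM, 1.51, 1.53 and 1.81 FPKM at 300 nM, and 1.60, 1.66 and 1.79 FPKM at 1000 nM. The groups did not overlap at any dose, and the 1000 nM mean was 2.54 times the DMSO mean. On the log2(FPKM + 0.5) scale, which understates changes of low genes, the changes were 0.58, 0.86 and 0.91 at 100, 300 and 1000 nM, and 0.59, 0.91 and 0.99 within the first type. Since the filter let ERBB3 in only through libraries in which it was high, its test is taken from the limma fit of all 36114 genes above 0 with no filter (adjusted p = 5.23e-05, 4.21e-09 and 8.11e-10). The reads behind these values ranged from 24 to 1311 per treated library and from 3 to 80 per DMSO library. At 6 h the mean was 0.663 ± 0.07 FPKM in DMSO (SD, n = 6), and 0.855 ± 0.10, 0.874 ± 0.11 and 0.882 ± 0.07 FPKM at 100, 300 and 1000 nM (SD, n = 3 each), and no change there passed the threshold in the same fit (adjusted p = 0.841, 0.474 and 0.458). The 100 and 1000 nM libraries lay above those of DMSO, and within the first type the changes at 300 and 1000 nM were 0.33 and 0.27.

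**Figure D3:**
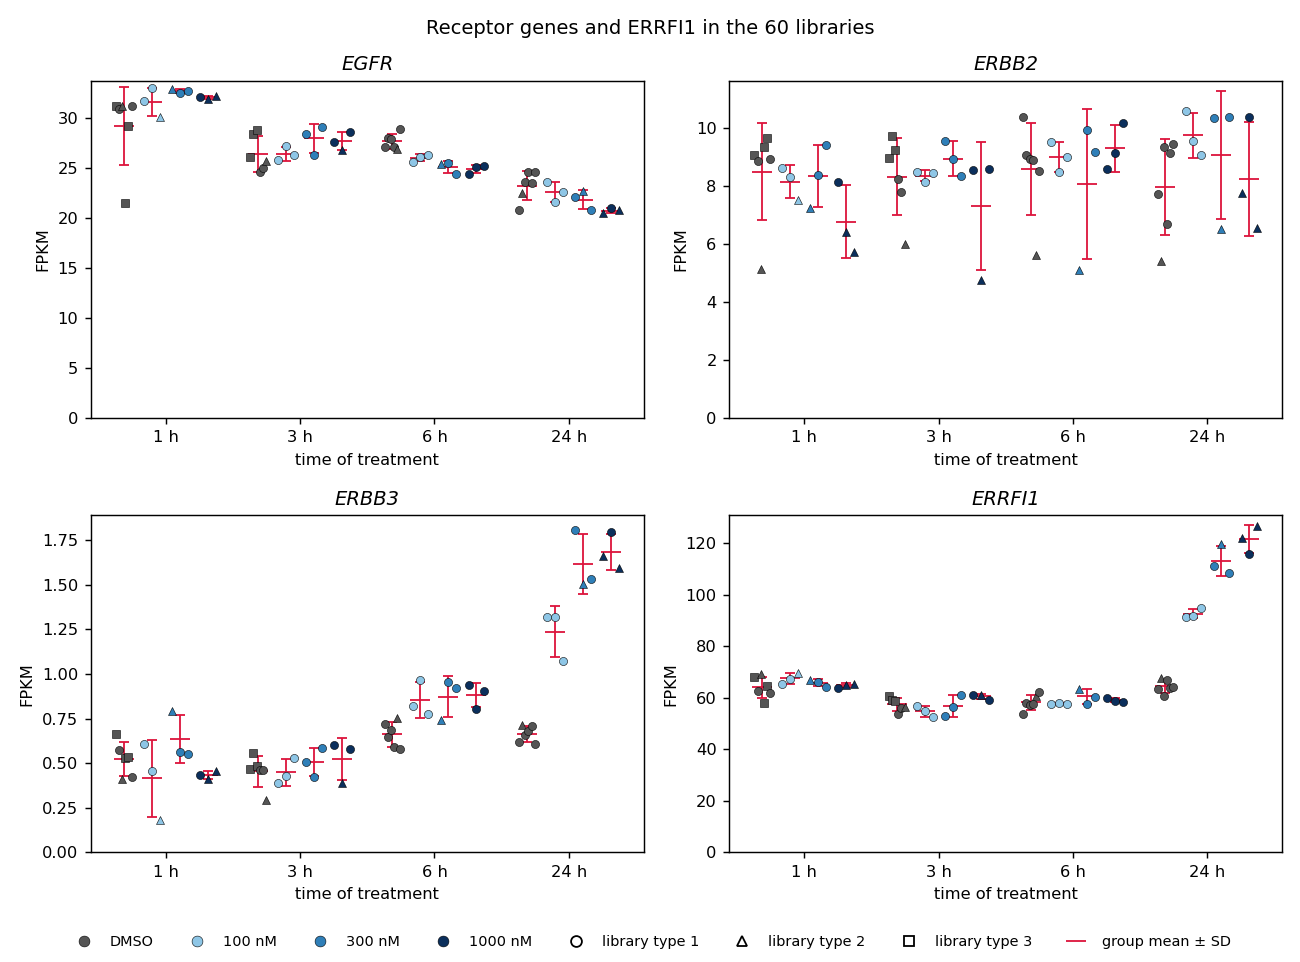
FPKM of EGFR, ERBB2, ERBB3 and ERRFI1 in every library, by time of treatment, with DMSO and the 3 doses side by side; point shape gives the library type, and red bars give the group mean with SD. ERBB3 and ERRFI1 lie above DMSO at 24 h at every dose, EGFR and ERBB2 overlap with it.

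ERRFI1, the gene of the cytoplasmic EGFR inhibitor, rose with the smallest SE of the 8 genes. At 24 h it measured 60.7 to 67.6 FPKM in DMSO (median 63.9), 91.5, 91.9 and 94.7 FPKM at 100 nM, 109, 111 and 120 FPKM at 300 nM, and 116, 122 and 127 FPKM at 1000 nM. Treated and DMSO libraries were far apart, and the doses did not overlap between 100 and 300 nM. The log2 changes were 0.52 ± 0.05, 0.81 ± 0.05 and 0.91 ± 0.05 (limma adjusted p = 2.02e-11, 2.51e-18 and 2.81e-20), and 0.54, 0.78 and 0.86 within the first type. The difference between 1000 and 100 nM was 0.39 ± 0.06 (adjusted p = 5.99e-06), though a fit to those groups alone left it short of the threshold (adjusted p = 0.291). The 1000 nM effect moved by 0.89 ± 0.07 between 6 and 24 h (adjusted p = 6.89e-14), after a change of 0.02 ± 0.05 at 6 h (adjusted p = 1).

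Counted together, 5 of the 7 members were called at 24 h at every dose, 4 of them higher (AREG, EREG, TGFA and ERRFI1) and 1 lower (HBEGF). The background was wide at this time: 19.7% of all genes were called at 100 nM, 10.5% as higher and 9.2% as lower, then 30.7% at 300 nM (16.5% higher, 14.2% lower), and 34.7% at 1000 nM, of which 19.1% were higher and 15.6% lower. The members' median log2 change was 0.43, 0.47 and 0.43 at 100, 300 and 1000 nM, beside 0.05, 0.05 and 0.03 over all genes tested. Between 1000 and 100 nM at 24 h, 3 of 7 were called (AREG and ERRFI1 higher, HBEGF lower) beside 4.94% of all genes (2.08% higher, 2.86% lower). Between the same doses at 1, 3 and 6 h it was 0 of 7, beside 0%, 0% and 0.0189% of all genes, with 0, 1 and 1 members at an unadjusted p under 0.05 in limma. For the 1000 nM effect from 6 to 24 h it was 4 of 7 (AREG, TGFA and ERRFI1 higher, HBEGF lower) beside 15.1% (8.16% higher, 6.95% lower). The doses share their DMSO libraries at each time, so these counts are not independent of one another. The members were also chosen with earlier results of these data known, so their counts and medians beside those of all genes only describe them.

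**Figure D4:**
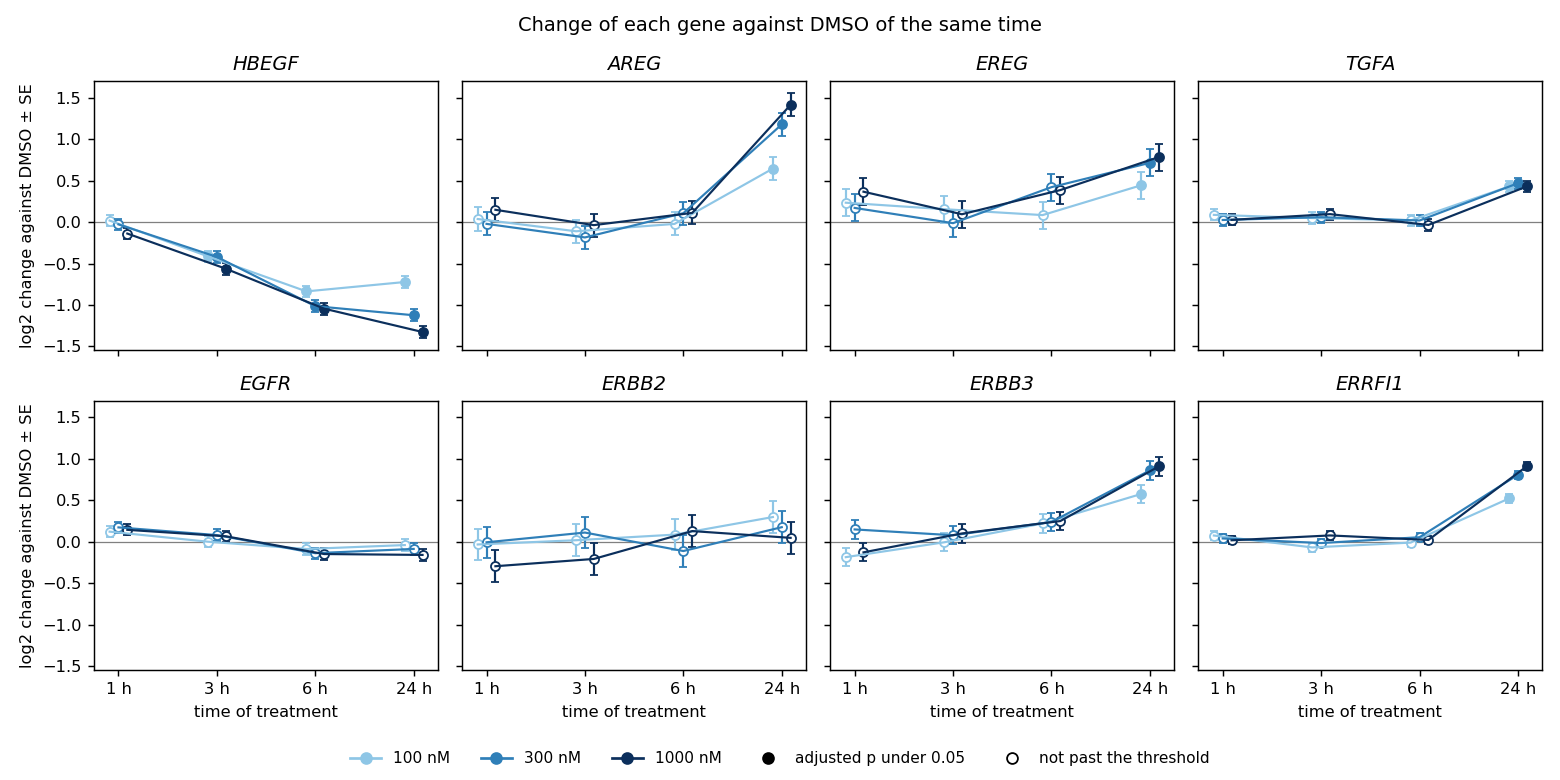
Log2 change of each of the 8 genes against DMSO of the same time at 100, 300 and 1000 nM, with limma's SE, over 1, 3, 6 and 24 h; filled points have an adjusted p under 0.05. HBEGF falls from 3 h on, while AREG, EREG, TGFA and ERRFI1 pass the threshold at 24 h only. ERBB3 entered this fit only through treated libraries of 24 h, so its filled points there describe and support nothing.

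The other genes of the pathway were read from lists chosen for their roles, with earlier results of these data known. Each count at 1000 nM and 24 h stands beside 19.1% of all genes higher, 15.6% lower and a median log2 change of 0.03. Because of that choice, a count above these shares is a description and no evidence for the list. Of 7 other EGF-family ligand genes, NRG1 and BTC were expressed enough to be tested, and EGF, EPGN, NRG2, NRG3 and NRG4 were not. NRG1, a ligand of ERBB3 and ERBB4, fell to 4.21 ± 0.47 FPKM at 1000 nM and 24 h (SD, n = 3), against 6.98 ± 0.95 FPKM in DMSO (SD, n = 6), a log2 change of -0.66 ± 0.07 (limma adjusted p = 3.79e-10). BTC, a ligand of EGFR and ERBB4, measured 1.51 FPKM in the first-type library at 1000 nM, against 0.634 to 0.797 FPKM in 5 first-type DMSO libraries. In second-type libraries BTC measured 2.55 and 3.37 FPKM at 1000 nM, against 3.67 FPKM in DMSO 24 h replicate 2. Its change of 0.98 ± 0.25 was called (adjusted p = 0.00135), but not in a fit to those groups alone (adjusted p = 0.158).

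Among genes of ligand shedding, 6 of 10 tested rose at 1000 nM and 24 h and 0 fell, with a median log2 change of 0.54. TIMP3, an inhibitor of ADAM17, rose to 230 ± 4.05 FPKM, against 115 ± 4.16 FPKM in DMSO (0.99 ± 0.04, adjusted p = 1.95e-24). RHBDF1, which encodes the inactive rhomboid that helps ADAM17 mature, and RHBDL2, a rhomboid protease, changed by 0.91 ± 0.30 and 0.56 ± 0.14 (adjusted p = 0.0169 and 0.000841). Those 2 calls rest on single libraries and on the shared spread, since in a fit to those groups alone the adjusted p was 0.141 and 0.0803, and RHBDF1 with array weights was at 0.26 (adjusted p = 0.336). Within the first type RHBDF1 was at 1.45, from the single 1000 nM 24 h library of that type, replicate 2, at 7.99 FPKM. RHBDF1 had a limma adjusted p of 0.221 without that library and 0.0554 without DMSO 24 h replicate 2. RHBDL2 had 0.0544 without 1000 nM 24 h replicate 3. The number that rose was 8 within the first type and 3 under the setting with fewest calls.

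Of 16 tested genes that inhibit or degrade the receptors, 6 rose and 1 fell, with a median of 0.26. EPS15, an adaptor of receptor endocytosis, rose by 0.87 ± 0.13 (adjusted p = 2.47e-07), PTPRJ, a receptor phosphatase that acts on EGFR, by 0.80 ± 0.07 (2.23e-14), and CBLB, a ubiquitin ligase of the receptors, by 0.66 ± 0.09 (3.25e-08). Within the first type EPS15 and CBLB were at 0.56 and 0.41, both still called (adjusted p = 0.000148 and 0.00574). The 1 gene that fell was PTPN1, a phosphatase, by 0.60 ± 0.05 (2.56e-15), named after its value was seen. Of the 17 adaptor and ERK cascade genes, 8 rose and 3 fell, with a median of 0.20. The RAS exchange factor genes SOS2 and SOS1 rose by 0.79 ± 0.15 and 0.64 ± 0.15 (adjusted p = 2.22e-05 and 0.000663), and by 0.51 and 0.40 within the first type (3.67e-06 and 0.00184). Among those that fell, PTPN11, a phosphatase, and MAP2K1, a kinase of the cascade, changed by -0.33 ± 0.10 and -0.22 ± 0.07 (adjusted p = 0.00804 and 0.0134), and were named after their values were seen. The counts of inhibitor and of cascade genes that rose ranged from 5 to 10 and from 3 to 11 over the other settings.

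In the PI3K and AKT arm 3 of 10 tested genes rose and 0 fell, with a median of 0.14. PIK3CB and PIK3CA, which encode catalytic subunits, rose by 0.42 ± 0.11 and 0.42 ± 0.15 (limma adjusted p = 0.00189 and 0.0276). Within the first type PIK3CB was at 0.23 (adjusted p = 0.0512) and PIK3CA at 0.25 (0.0429), and in a fit to those groups alone PIK3CB had an adjusted p of 0.0727. With type terms PIK3CA was at 0.21 (adjusted p = 0.0345), and it lost its call in 3 of 11 other settings and in 3 of 9 fits without a library.

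Genes that respond to ERK activity went both ways at 24 h, 8 of 16 higher and 2 lower at 1000 nM, with a median of 0.36. SPRED1 and SPRY4, which encode feedback inhibitors of the RAS-ERK cascade, rose by 1.54 ± 0.17 and 1.03 ± 0.13 (limma adjusted p = 1.64e-10 and 8.37e-09). FOSL1, an AP-1 subunit, fell to 37.5 ± 11.5 FPKM, against 93.7 ± 17.1 FPKM in DMSO (-1.33 ± 0.20, adjusted p = 6.94e-07). The other gene that fell, named after its value was seen, was MYC (-0.81 ± 0.10, adjusted p = 7.01e-09). At 6 h the same list had 1 gene higher and 2 lower of 16. Of 5 listed YAP1/TAZ targets, 5 fell at 1000 nM and 24 h. Among them were CYR61 (-4.15 ± 0.07), CTGF (-3.66 ± 0.07) and ANKRD1 (-3.32 ± 0.11) (limma adjusted p = 9.15e-41, 3.28e-40 and 1.70e-28). The list was chosen with earlier results of these data known, so its fall is no independent check of the compound.

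**Figure D5:**
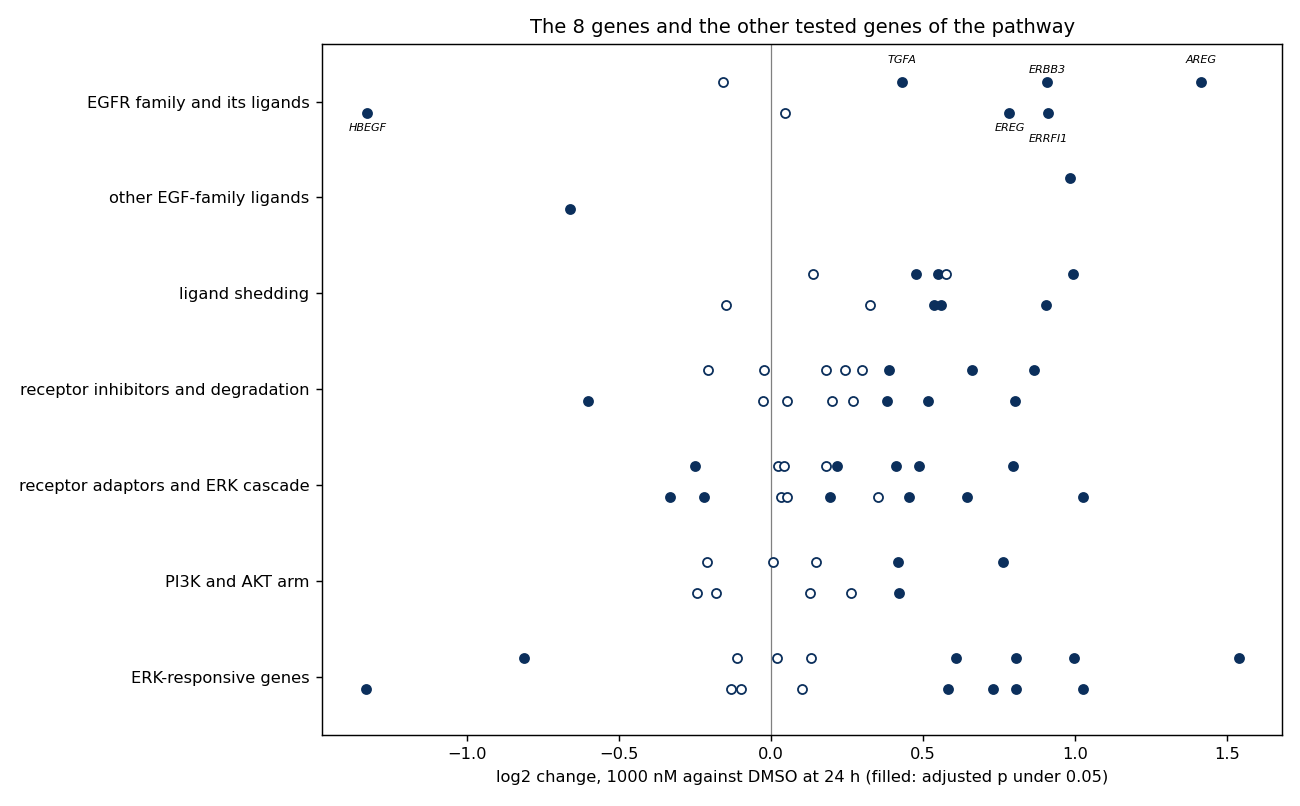
Log2 change at 1000 nM against DMSO at 24 h of the 8 genes and of the tested genes of 6 pathway lists, 1 point per gene; filled points have an adjusted p under 0.05, and the called ones among the 8 are named, ERBB3 among them, which entered the fit only through its treated libraries. Called genes of the 6 lists lie on both sides of 0, with 6 of 10 shedding genes higher and 0 lower.

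The genes whose 16 group means followed each member most closely were found by Pearson's r, as a description, since all points share the same libraries. HBEGF was matched by F3 (r = 0.987), ETS1 (0.986) and CD3EAP (0.980). AREG was matched by its copy AREGB (0.9999), then by MAP4K4 (0.986) and APLP2 (0.984). For ERRFI1 they were AHNAK (0.989), ADAMTS9 (0.988) and HEATR5A (0.985), and for TGFA they were ARSD (0.988), NOX5 (0.983) and SCNN1A (0.982). ERBB3 ran closest to HERPUD1 (0.981), RAB3D (0.978) and CTBP2 (0.976). The closest genes were looser for EREG (KITLG, 0.945, and TMED10, 0.941, among its 3 nearest), EGFR (MYO10, 0.958, MDN1, 0.954, and WASF3, 0.952) and ERBB2 (FAM127B, 0.968, PIGO, 0.955, and SORBS3, 0.954).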

How the data were processed

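The authors deposited log2 values of FPKM plus 1 for 38342 gene names in 60 libraries of stranded, poly(A)-selected single reads, 3 for each dose and 6 of DMSO at each time. The tools, per the submitters' processing notes, were STAR 2.4.2a, featureCounts 1.4.6-p2 (Subread) and DESeq2, with the build hg19. No source used here names the annotation release. FPKM had been assumed, so the deposited log2 values were converted back to FPKM. Whole reads were recovered from the steps of the values: of 1304094 non-zero values, 100% came within 0.01 of a whole read.

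limma 3.58.1 (R 4.3.3) was fitted to log2(FPKM + 0.5) of the 15866 genes at 1 FPKM or more in at least 3 libraries, with 1 mean per group, a mean-variance trend, robust variances and 44 residual degrees of freedom. Calls required p under 0.05 after Benjamini-Hochberg adjustment over all genes of a comparison. The 22 comparisons were each dose against DMSO (12), 1000 against 100 nM (4), the change of the 1000 nM effect between times (3) and successive DMSO times (3). No 2 libraries held identical values. Named genes are the 8 members, up to 3 called genes of each list by size at 1000 nM and 24 h, and the 3 genes nearest each member by r of group means; exceptions are marked, and a few genes that the rule names are not reported here. The members and lists were chosen with earlier results of these data known. The fit was tested on simulated data. Alternatives were a pseudocount of 0.1 or 1, no filter, array weights, scaling by median of ratios, a fit to only the groups compared, terms for library types, the first type only, voom on recovered reads as the count test, leaving out libraries under 2 M reads, each library left out, and, added after the data had been seen, type terms without those shallow libraries. Types were set from an index of 12 pseudogenes above 1 and from MT-ND6 above 20 FPKM. Overlapping genes came from GENCODE 29 and promoter windows from RefSeq (GRCh38.p14). This build differs from the files' hg19, so those windows are sequences only. Depth limits precision as reads per gene, from 3 reads for ERBB3 in the shallowest library, and covers counting error only. Python 3.11.15, pandas 2.3.3, numpy 2.4.6 and matplotlib 3.10.9 were used for tables and figures.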

Additional observations from a re-analysis of the deposited data

Results flagged for a closer look

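In 5 of 32 sets of 6 DMSO libraries, 1 per gene and time, a library stood apart by Dixon's test, which flags about 1 set in 20 by chance. AREG was 66.4 FPKM in DMSO 24 h replicate 2 (0.475 M reads, second type), against 51.5 to 55.8 in the other 5. EGFR and TGFA were 21.5 and 14.3 FPKM in DMSO 1 h replicate 4, of the third type, with the nearest library at 29.2 and 16.9. ERBB2 was 5.14 FPKM in DMSO 1 h replicate 3, of the second type, with the nearest at 8.86. ERBB3 was 0.292 FPKM in DMSO 3 h replicate 6, of the second type, with the nearest at 0.459.

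The 1000 nM effect differed between times in a direct test for HBEGF from 3 to 6 h (-0.48) and from 6 to 24 h (-0.28), and from 6 to 24 h for AREG (1.30), TGFA (0.46), ERBB3 (0.66) and ERRFI1 (0.89). ERBB3 passed the filter only through treated libraries of 24 h, and its step had an adjusted p of 0.00144 in the limma fit with no filter.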

How the results depend on the processing

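At 24 h the count of 5 of 7 members called was 4 to 7 over the doses and settings run, and HBEGF, AREG, TGFA and ERRFI1 kept their calls against DMSO at 24 h in all 11 settings and all 9 fits without a library. Counts of called members that changed by more than 1.5 times were as follows. Array weights gave 3 at 1000 nM at 1 h, 2 at 100 nM at 3 h, 3 at 1000 and at 300 nM at 6 h, and 2, 1 and 1 for 1000 against 100 nM at 1, 3 and 6 h. They also gave 3 and 4 for the 1000 nM effect from 1 to 3 h and from 3 to 6 h, and 2 for each of DMSO 3 h against 1 h and 6 h against 3 h. Only the groups compared gave 0 at each dose at 3 h, 0 for 1000 against 100 nM at 24 h and 1 for DMSO 24 h against 6 h. Library type terms, with or without the shallow libraries, gave 2 at 1000 nM at 6 h and 1 for the effect from 1 to 3 h, and for DMSO 3 h against 1 h they gave 1 with the shallow libraries and 2 without. The first type only gave 4 at 1000 nM at 6 h, 2 for the effect from 3 to 6 h, and 2 and 1 for DMSO 3 h against 1 h and 6 h against 3 h. Leaving out the shallow libraries gave 1 for the effect from 1 to 3 h (HBEGF, as with type terms) and for DMSO 3 h against 1 h, and voom gave 1 for that effect and for DMSO 6 h against 3 h. Leaving out 1 library gave 0 to 1 for the effect from 3 to 6 h and 0 to 2 for DMSO 3 h against 1 h. Over all genes at 1000 nM, limma called 0, 319 and 5506 at 1, 6 and 24 h, voom 0, 457 and 5177, array weights 6380, 2151 and 8715, only the groups compared 0, 117 and 2987, no filter 21, 490 and 6121, type terms 0, 738 and 7535, the same without the shallow libraries 1, 949 and 7146, and the first type only 0, 1222 and 5698. The cause of each change was not tested, except that a fit to only the groups compared has fewer residual degrees of freedom. Array weights were the setting that added most calls, and their estimation gave a convergence warning. No called result changed its sign. The first type alone leaves 1 library at 1000 nM at 1 and at 24 h, assumed to vary like the other groups. No paired analysis was possible because the labels number the libraries in running order and tie no replicate of one group to a replicate of another. The third type is found in DMSO at 1 and 3 h only, so at those times it cannot be told apart from a part of the DMSO group.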
